A study of Mus musculus with 24 samples.

Results

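The marrow described here came from mice labelled Cyp1b1-null that had received olive oil, the vehicle of the study. It was measured on 2 of the 24 arrays of the series and compared with marrow of oil-treated wild-type (WT) mice, for which 3 arrays exist. Arrays were chosen by the genotype and agent in the labels. WT oil replicates 2 and 3 were the controls, since the reference channel of WT oil replicate 1 stood apart. All mice were female C57BL/6j animals of 6 weeks, injected intraperitoneally, and the labels give 50 mg/kg for every treatment. Each array carried a pool of 9 samples in Cy3 (green) and a common reference, pooled WT oil marrow, in Cy5 (red), with no dye swap. Levels are log ratios, log2 of Cy3 over Cy5, and a difference between groups is a difference of mean log ratios on the log2 scale with its standard error (SE).

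Further groups served for comparison. Marrow taken 12 h after DMBA (7,12-dimethylbenz(a)anthracene, a polycyclic aromatic hydrocarbon) was measured on 2 arrays of Cyp1b1-null and 3 arrays of WT mice. Cyp1a1-null mice given oil had 3 arrays. Cyp1a1-null mice had 3 arrays 12 h after BP (benzo(a)pyrene, another such hydrocarbon), of which replicates 1 and 2 lay on the same slide as both Cyp1b1-null oil arrays. These 2 arrays are called the slide mates, and they differ from Cyp1b1-null oil in genotype and in treatment. Mice lacking both Cyp1b1 and Cyp1a1, labelled double-null, had 1 array after oil and 2 arrays 12 h after BP. WT mice also had 3 arrays 12 h after TCDD (a dioxin) and 2 arrays 6 h after BP. The labels do not say how the Cyp1b1 allele was made, at which hour the oil marrow was taken, or whether the pooled samples were single mice. The p-values therefore measure only the spread between arrays within groups, pooled over 23 arrays of the series, which may be technical. In several groups all arrays shared a slide, whereas Cyp1b1-null oil and WT oil lay on different slides. Spread between slides thus enters these p-values only in part.

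Cyp1b1 encodes a cytochrome P450 that oxidises polycyclic aromatic hydrocarbons, oestrogens and retinoids. Its transcription is induced through the aryl hydrocarbon receptor (AhR), a ligand-activated transcription factor. In marrow the enzyme is known mainly from stromal cells, where it turns DMBA into products toxic to developing B cells. B cells form in adult marrow from lymphoid progenitors through pro-B and pre-B stages under the transcription factors Ebf1, Foxo1 and Pax5, while Rag1 and Rag2 cut the immunoglobulin loci. The title of the series links Cyp1b1 to lymphoid progenitors, and the oil comparison asks how marrow of the mutant differs from WT before any hydrocarbon is given.

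Cyp1b1 itself was not lower on the arrays labelled Cyp1b1-null. Its brighter probe gave log ratios of -0.04 and 0.57 in WT oil and of 0.51 and 1.08 in Cyp1b1-null oil, a difference of 0.53 (SE 0.23, adjusted p = 0.0875). Its other probe gave -0.36 and -0.06 against 0.16 and 0.37. The labels do not say which part of the gene is missing, so these probes check nothing. Xist, the transcript that silences an X chromosome in female cells, was well above background on 23 of the 24 arrays, at log ratios from -0.73 to 1.24. On Cyp1b1-null oil replicate 2 it was not well above background, at -3.97, which goes against the female label, while replicate 1 gave -0.15. The Y-linked genes Ddx3y (0.01), Eif2s3y (0.13) and Uty (-0.10) were not well above background on replicate 2 either. Kdm5d, also Y-linked, was (0.25), as it was on replicate 1 of the slide mates (0.11). The cause of the low Xist value was not tested. Values are therefore given for each array, and the main counts also without replicate 2.

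Slide and genotype cannot be told apart in the comparison with WT oil, since no slide held both groups. The 2 Cyp1b1-null oil arrays correlated at 0.937 with each other over 24372 genes and at 0.766 to 0.779 with the slide mates, while WT oil replicates 2 and 3, from different slides, correlated at 0.137. Over all 41174 probes WT oil replicate 3 correlated at -0.345 and -0.319 with the Cyp1b1-null oil arrays and at -0.339 and -0.344 with the slide mates. The labels put the sample in Cy3 on every array, so the direction of the ratio was kept. Saturated Cy5 spots numbered 348 and 309 of 43379 on the Cyp1b1-null oil arrays, 349 and 351 on the slide mates, and 39 and 70 on the controls. The marrow label held: all 32 erythroid genes, all 15 neutrophil primary granule genes and 29 of 30 pro-B and pre-B genes tested were well above background on both arrays of each group. Liver genes took 0.012% and 0.0164% of the summed Cy3 signal in Cyp1b1-null oil and 0.0102% and 0.00555% in the controls, against 0.252% on WT oil replicate 1. That array also had the widest log ratios of the WT oil arrays (SD 1.10).

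Against WT oil, 7232 of 24372 genes tested (29.7%) were called at an adjusted p under 0.05. Of these, 4209 were higher (17.3%) and 3023 lower (12.4%) in Cyp1b1-null oil. The count was 3360 without Cyp1b1-null oil replicate 2, 3465 without replicate 1, 2584 without WT oil replicate 3 and 3780 with WT oil replicate 1. Both slide mates also lay beyond both WT oil arrays, in the same direction, for 83.7% of the genes called higher and 78.3% of those called lower, where 35.3% and 25.1% of all genes tested did. Among the 1852 genes called higher by more than 1 on the log2 scale, that share was 94.2%. The test with slide as a random block left 919 genes called higher (3.77%) and 934 called lower (3.83%). Without regard to the test, both Cyp1b1-null oil arrays lay above both controls for 37.2% of all genes and below both for 27.2%.

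A direct contrast with the slide mates, added after the slides had been seen, called 1795 genes (7.37%), with 813 higher (3.34%) and 982 lower (4.03%) in Cyp1b1-null oil. Called in the same direction against WT oil and against the slide mates were 455 higher genes (1.87%) and 486 lower genes (1.99%). Both contrasts use the same Cyp1b1-null oil arrays, and the second also holds the effects of BP and of Cyp1a1. Values against both are given side by side below.

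**Figure D1:**
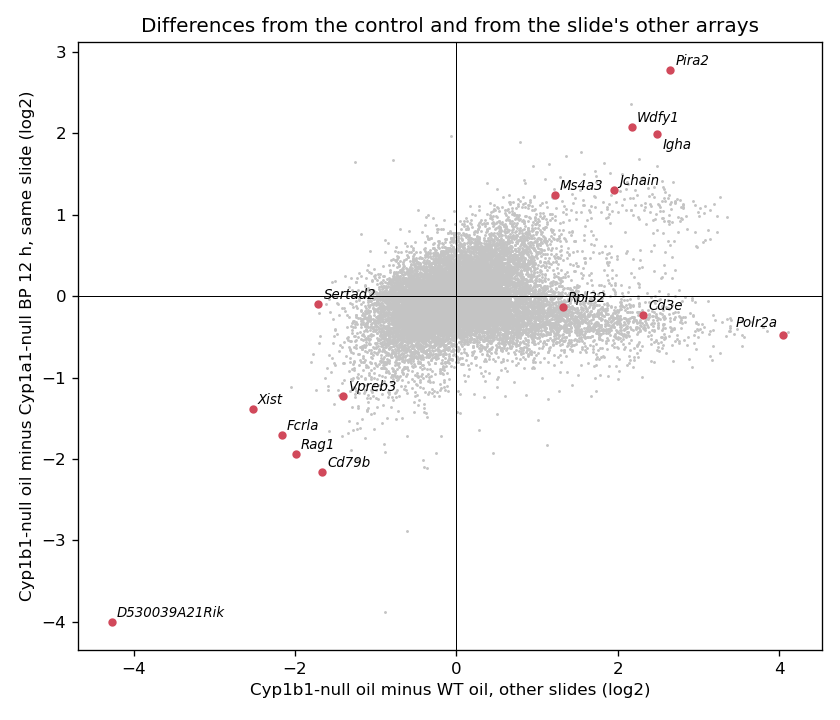
Each grey point is 1 of 24372 genes; the horizontal axis is the log2 difference of Cyp1b1-null oil from WT oil, and the vertical axis its log2 difference from the Cyp1a1-null BP arrays of the same slide. Many large rises lie near 0 on the vertical axis, as Polr2a does at 4.04 and -0.48, while D530039A21Rik, Cd79b, Rag1 and Fcrla lie low and Pira2, Igha and Wdfy1 high on both axes.

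Genes of the B lineage took a smaller share of the summed Cy3 signal in Cyp1b1-null oil than in WT oil and in the slide mates. This share does not use the reference channel and is given for each array. The 30 pro-B and pre-B genes took 0.59% and 0.573% of the Cy3 signal in WT oil replicates 2 and 3 and 0.712% in replicate 1. They took 0.292% and 0.341% in Cyp1b1-null oil and 0.538% and 0.622% in the slide mates. Both Cyp1b1-null oil arrays thus lay below all 3 WT oil arrays and below the arrays that shared their slide.

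The 24 mature B cell genes took 0.364% and 0.36% of the Cy3 signal in the controls, 0.203% and 0.233% in Cyp1b1-null oil, and 0.38% and 0.419% in the slide mates. The 28 lymphoid progenitor genes took 0.196% and 0.205% in the controls, 0.141% and 0.146% in Cyp1b1-null oil, and 0.214% and 0.24% in the slide mates. In neither list did Cyp1b1-null oil overlap with the controls or the slide mates. Some genes, such as Rag1 and Ebf1, belong to more than 1 of these lists. Lower shares were not limited to the B lineage. Osteoclast genes took 0.0832% and 0.0894% in Cyp1b1-null oil, 0.135% and 0.155% in the controls, and 0.111% and 0.115% in the slide mates. Megakaryocyte and platelet, stem and progenitor, and erythroid genes were also below both without overlap. Except for erythroid genes, these lists were lower in Cyp1b1-null than in WT mice after DMBA too. Neutrophil primary granule, T and NK cell, and endothelial genes lay above both. In bulk marrow, fewer cells of a type and less RNA per cell cannot be told apart.

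DMBA-treated marrow, whose arrays the oil comparison does not use, showed the same order of genotypes. No slide held both genotypes after DMBA, so slide and genotype cannot be told apart there either. Pro-B and pre-B genes took 0.257% and 0.341% of the Cy3 signal in Cyp1b1-null DMBA and 0.538% to 0.562% in WT DMBA. Mature B cell genes took 0.202% and 0.257% against 0.379% to 0.394%. The 2 genotypes did not overlap in either list. By log ratio, 0 of 30 pro-B and pre-B genes were called lower after DMBA (median -0.26). Called lower were 1 of 24 mature B cell genes (median -0.37) and 0 of 28 lymphoid progenitor genes (median -0.23). Over all genes, 0.726% were called lower. In the other groups, pro-B and pre-B genes took 0.426% to 0.67% in Cyp1a1-null oil, 0.393% in double-null oil, 0.39% and 0.471% in double-null BP, and 0.351% to 0.439% in WT mice 12 h after TCDD, a dioxin that activates AhR. Every one of these arrays lay above the 4 Cyp1b1-null arrays for this list. For mature B cell genes, WT TCDD (0.246% to 0.299%) and double-null oil (0.253%) overlapped with Cyp1b1-null DMBA but lay above Cyp1b1-null oil. For lymphoid progenitor genes, the TCDD arrays (0.12% to 0.147%), Cyp1a1-null oil (0.14% to 0.216%) and the double-null arrays (0.125% to 0.14%) overlapped with Cyp1b1-null oil.

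**Figure D2:**
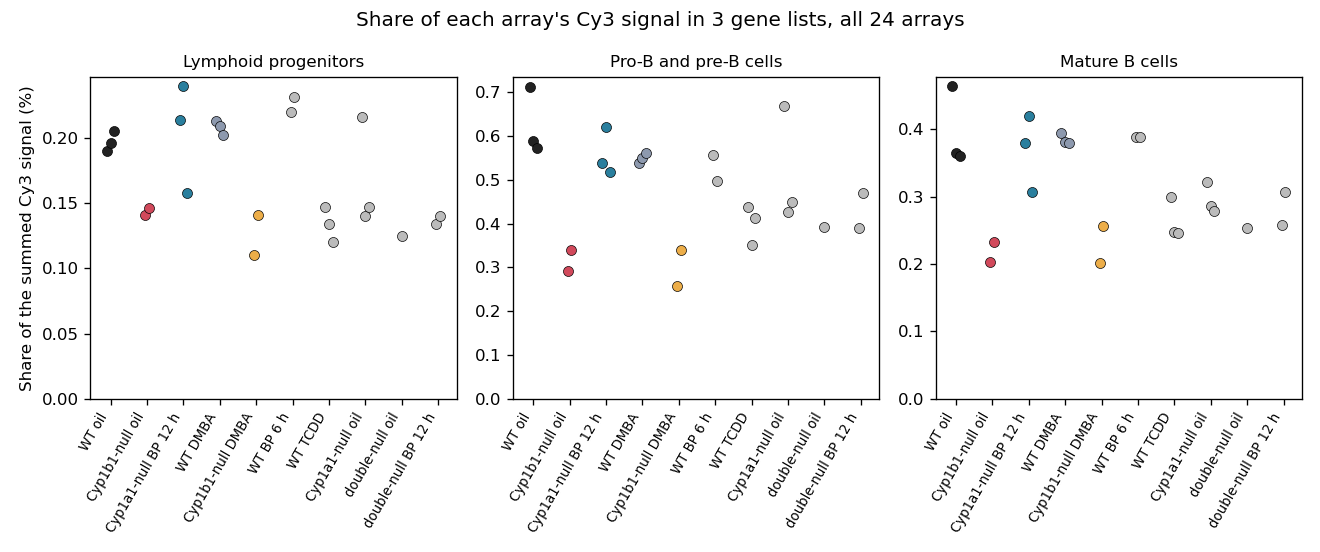
Each point is 1 of the 24 arrays, and the vertical axis, from 0, is the share (%) of that array's summed Cy3 signal held by the genes of a list; groups stand along the horizontal axis. For pro-B and pre-B genes the Cyp1b1-null arrays (0.292% and 0.341% after oil, 0.257% and 0.341% after DMBA) lie below every other array, whereas for lymphoid progenitors several other groups reach the same level.

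By log ratio, 9 of 30 pro-B and pre-B genes were called lower and 2 higher than in WT oil, with a median difference of -0.49, where the median of all genes was 0.06. Of 24 mature B cell genes, 11 were lower and 1 higher (median -0.52), and of 28 lymphoid progenitor genes, 9 were lower and 2 higher (median -0.41). The background of genes called lower was 12.4%, and of those called higher 17.3%. Lower against both WT oil and the slide mates were 7, 7 and 6 genes of the 3 lists, where 1.99% of all genes were. Without Cyp1b1-null oil replicate 2, 6, 7 and 7 genes were lower than in WT oil, and 1, 2 and 1 were lower against both. Without replicate 1, 6, 4 and 6 were lower than in WT oil, and 0, 1 and 0 against both. With slide as a random block, 4, 5 and 4 were lower. The 3 medians were -1.50, -1.40 and -1.32 with WT oil replicate 1 and -0.77, -0.96 and -0.66 with processed signals, and that of lymphoid progenitors was -0.24 without Cyp1b1-null oil replicate 1.

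Rag1, the catalytic subunit of the recombinase that assembles immunoglobulin genes, gave log ratios of 0.42 and 0.48 in WT oil and of -1.53 and -1.55 in Cyp1b1-null oil. The slide mates gave 0.35 and 0.44. Both Cyp1b1-null oil arrays were low and close to each other, and the groups did not overlap. The difference was -1.99 from WT oil (SE 0.44, adjusted p = 0.00414) and -1.94 from the slide mates (SE 0.41, adjusted p = 0.00902). After DMBA, Rag1 gave -1.30 and -0.48 in Cyp1b1-null and 0.18 to 0.28 in WT mice, a difference of -1.12 that was not called (adjusted p = 0.235). Rag2, its partner, was lower than in WT oil (-0.49, adjusted p = 0.004) but did not differ from the slide mates (-0.07, adjusted p = 0.802), and its Cy3 was well above background on 1 of the 2 Cyp1b1-null oil arrays.

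Ebf1, Foxo1 and Spib, transcription factors of the lineage, were low on both Cyp1b1-null oil arrays. Ebf1, which specifies B cell fate, gave 0.78 and 0.95 in WT oil, -0.46 and -0.07 in Cyp1b1-null oil, and 0.61 and 0.42 in the slide mates. Its difference was -1.14 from WT oil (adjusted p = 0.00238, or 0.0617 with slide as a random block) and -0.78 from the slide mates (adjusted p = 0.0408). Foxo1, which drives Rag1 and Rag2 transcription, gave 0.42 and 1.01 in WT oil, -0.78 and -0.46 in Cyp1b1-null oil, and 0.31 and 0.28 in the slide mates. It differed by -1.34 (SE 0.25, adjusted p = 0.00196) and -0.92 (SE 0.25, adjusted p = 0.0353).

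Spib, an Ets factor of B cells and plasmacytoid dendritic cells, gave 0.57 and 0.52 in WT oil, -1.02 and -0.68 in Cyp1b1-null oil, and 0.20 and 0.17 in the slide mates. It differed by -1.39 from WT oil (adjusted p = 0.00241) and by -1.03 from the slide mates (adjusted p = 0.0303). Pax5, which commits cells to the B lineage, went the other way against WT oil, with -0.26 and -0.17 in WT oil and 0.06 and 0.20 in Cyp1b1-null oil (0.34, adjusted p = 0.0238). The slide mates gave 0.15 and 0.11 for Pax5, between the 2 Cyp1b1-null oil arrays. Its Cy3 was well above background on 1 of the 2 WT oil arrays. The call of Pax5 was lost with slide as a random block (adjusted p = 0.121).

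The window at the start of Foxo1 is shown because it is one of 2 genes, of the 71 described genes with a promoter in the RefSeq table (GRCm38.p6), that hold the palindromic motif bound by Ebf1, TCCCNNGGGA, searched on both strands. Gimap6, a gene described further on, is the other. The motif stood in 0.904% of 32851 promoters of the same length. Capitals mark the match, which is a description and no evidence of binding. The Foxo1 window is on the plus strand (chr3:52268185-52268304) and that of Gimap6 on the minus strand (chr6:48708375-48708494).
Foxo1: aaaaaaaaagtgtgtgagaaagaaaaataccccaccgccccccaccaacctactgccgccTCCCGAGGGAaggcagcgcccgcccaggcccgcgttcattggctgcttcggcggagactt
Gimap6: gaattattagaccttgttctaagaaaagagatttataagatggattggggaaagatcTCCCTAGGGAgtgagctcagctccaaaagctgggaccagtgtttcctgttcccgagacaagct

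Vpreb3 and Cd79b were lower as well. Vpreb3, a protein of the pre-B cell receptor assembly, gave 0.54 and 0.45 in WT oil, -0.90 and -0.90 in Cyp1b1-null oil, and 0.36 and 0.30 in the slide mates. It differed by -1.40 from WT oil (SE 0.27, adjusted p = 0.00207) and by -1.23 from the slide mates (SE 0.26, adjusted p = 0.009). Cd79b, a signalling chain of the B cell receptor, gave 0.42 and 0.58 in WT oil, -1.20 and -1.12 in Cyp1b1-null oil, and 0.95 and 1.06 in the slide mates. Both genes separated the groups without overlap.

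Cd79b differed by -1.66 from WT oil (SE 0.43, adjusted p = 0.00916) and by -2.16 from the slide mates (SE 0.35, adjusted p = 0.00192). Its Cy5 spot was saturated on 1 of the 2 Cyp1b1-null oil arrays, on both slide mates and on none of the 3 WT oil arrays, and the part of this in the values was not tested. After DMBA it gave -1.45 and -0.75 in Cyp1b1-null and 0.31 to 0.66 in WT mice, with no saturated spot in either group and a difference of -1.55 (adjusted p = 0.0565). The genotypes did not overlap there, but the difference was not called.

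Fcrla, Fcmr and Ralgps2 of the mature B cell list followed the same order. Fcrla, an Fc receptor-like protein of B cells, gave 0.51 and 0.93 in WT oil, -1.62 and -1.27 in Cyp1b1-null oil, and 0.14 and 0.39 in the slide mates. Its fall was the largest of the list by the main comparison, with differences of -2.16 from WT oil (SE 0.36, adjusted p = 0.00101) and -1.71 from the slide mates (SE 0.34, adjusted p = 0.00643). Fcmr, the Fc receptor for IgM, differed by -1.52 and -1.32, and Ralgps2, an exchange factor for Ral GTPases, by -0.91 and -0.80, all 4 called.

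Blk, a Src-family kinase of B cells, gave 0.51 and 0.29 in WT oil, -0.79 and -0.84 in Cyp1b1-null oil, and 0.60 and 0.52 in the slide mates. Cd72, an inhibitory co-receptor named after its values were seen, gave 0.60 and 0.19, then -1.03 and -0.80, then 1.04 and 0.91. For both, the Cyp1b1-null oil arrays were the low ones, but the call against WT oil was lost with slide as a random block (adjusted p = 0.068 for Blk and 0.0636 for Cd72). Cr2, complement receptor type 2, was the mature B cell gene called higher than in WT oil (1.21, adjusted p = 0.0063). Its log ratios of 1.15 and 0.89 in Cyp1b1-null oil were matched by 1.25 and 1.13 in the slide mates.

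Igha and Jchain, transcripts abundant in antibody-secreting plasma cells, were higher. Igha, the constant region of the IgA heavy chain, gave -0.08 and 0.22 in WT oil, 3.07 and 2.03 in Cyp1b1-null oil, and 0.91 and 0.22 in the slide mates. It was higher by 2.49 than in WT oil (SE 0.38, adjusted p = 0.000662) and by 1.99 than in the slide mates (SE 0.34, adjusted p = 0.0027). Jchain, which links the subunits of secreted IgA and IgM, gave 0.31 and 0.03, then 2.64 and 1.61, then 0.81 and 0.83. It differed by 1.95 (SE 0.36, adjusted p = 0.00181) and 1.31 (adjusted p = 0.036). Replicate 1 was the higher Cyp1b1-null oil array for both genes, and both arrays lay above the controls and the slide mates.

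After DMBA, 384 genes (1.58%) differed between Cyp1b1-null and WT mice, 207 higher (0.849%) and 177 lower (0.726%). Igha was among them, with 2.20 and 2.05 in Cyp1b1-null and 0.26 to 0.72 in WT mice (1.60, adjusted p = 0.0273). Jchain gave 1.94 and 2.16 against 0.45 to 0.87 (1.32, adjusted p = 0.0562). The double-null arrays gave 1.88 to 2.22 for Igha, and Cyp1a1-null oil gave 0.84 to 1.61. WT oil replicate 1, which was not used as a control, gave 2.63 for Igha, within the range of the Cyp1b1-null oil arrays. For Jchain it gave 2.75, above both Cyp1b1-null oil arrays.

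**Figure D3:**
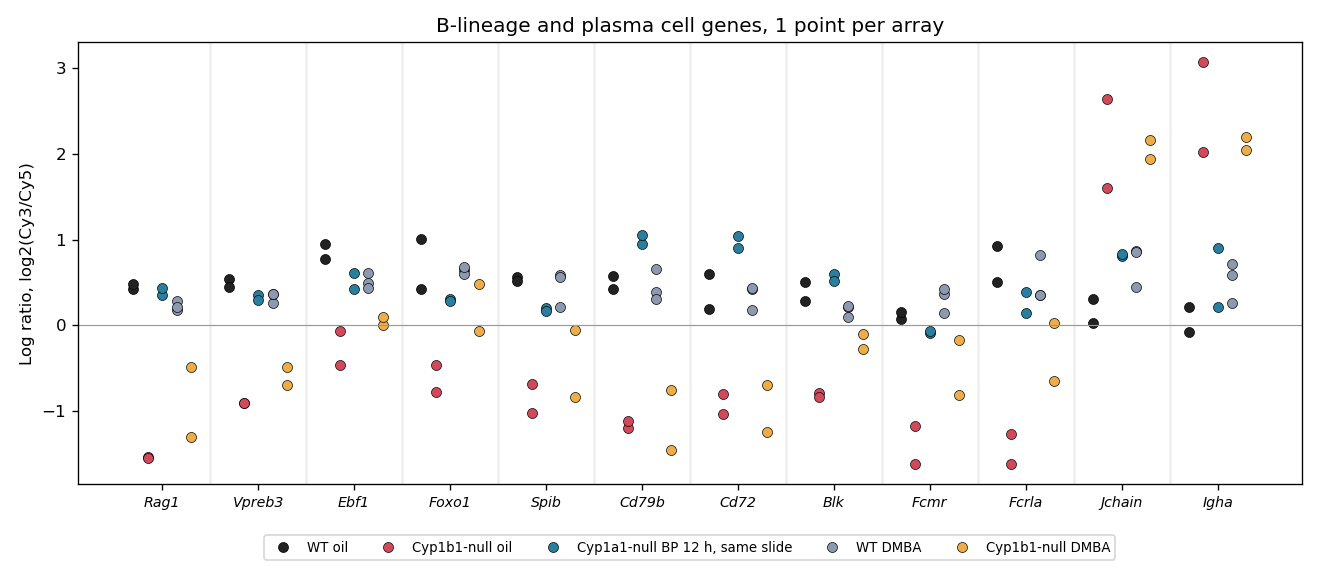
Log ratios, log2(Cy3/Cy5), of 12 genes with 1 point per array for WT oil replicates 2 and 3, Cyp1b1-null oil, the slide mates, WT DMBA and Cyp1b1-null DMBA. From Rag1 to Fcrla both Cyp1b1-null oil points lie below those of WT oil and the slide mates (Rag1 at -1.53 and -1.55 against 0.42 and 0.48), and for Jchain and Igha they lie above; after DMBA the 2 genotypes are also apart in each of these genes.

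Other lymphoid and antigen-presenting cells were less uniform. Of 22 genes of dendritic cells and MHC class II, 5 were lower and 2 higher than in WT oil, with backgrounds of 12.4% and 17.3%. Lower also against the slide mates were 4, where 1.99% of all genes were. In the fit with slide as a random block, 1 was lower and 1 higher. The MHC class II chain H2-Aa gave 0.09 and -0.02 in WT oil, -0.83 and -0.70 in Cyp1b1-null oil, and 0.43 and 0.53 in the slide mates (-0.80, adjusted p = 0.0274, and -1.25, adjusted p = 0.00552). H2-DMa, which loads peptides onto class II, differed by -0.67 and -0.93, and Irf8, a factor of dendritic cells, monocytes and B cells, by -0.88 and -0.62. The call of H2-Aa against WT oil was lost with slide as a random block (adjusted p = 0.13), and so was that of H2-DMa (adjusted p = 0.0648).

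T and NK cell genes took 0.058% and 0.0586% of the Cy3 signal in Cyp1b1-null oil, 0.0383% and 0.037% in the controls, and 0.0513% and 0.0455% in the slide mates. Of 28 such genes, 7 were higher and 4 lower than in WT oil, with 1 in each direction called against the slide mates too. The shares over all genes were 17.3% and 12.4% against WT oil, and 1.87% and 1.99% against both. With slide as a random block 1 was higher and 2 were lower. Cd3e, a chain of the T cell receptor complex, gave -0.18 and -1.03 in WT oil and 1.76 and 1.64 in Cyp1b1-null oil (2.31, adjusted p = 0.00212), but 2.29 and 1.56 in the slide mates, which overlap. Zap70, a kinase of that receptor, was lower than in WT oil (-0.97, adjusted p = 0.000715) and not different by the test from the slide mates (-0.04, adjusted p = 0.914). Cd2, an adhesion molecule of T, NK and B cells, was lower against both (-1.24 and -1.16).

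Gimap1 and Gimap6, GTPases that lymphocytes need to survive, were lower after both treatments. Gimap1 gave 0.06 and 0.06 in WT oil, -1.42 and -1.11 in Cyp1b1-null oil, and 0.24 and 0.30 in the slide mates. After DMBA it gave -1.38 and -0.77 in Cyp1b1-null and -0.06 to 0.27 in WT mice. Its differences were -1.33 from WT oil (adjusted p = 0.00352), -1.54 from the slide mates (adjusted p = 0.00253) and -1.16 after DMBA (adjusted p = 0.0297). Gimap6 differed by -1.23, -1.63 and -1.21 in that order, each called, and in neither gene did the groups compared overlap. Klhl6, an adaptor needed by germinal centre B cells, differed by -1.63 from WT oil and by -1.01 after DMBA, both called, and was also called lower than in the slide mates.

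Genes of neutrophil granules were partly higher. The 15 primary granule genes took 0.565% and 0.511% of the Cy3 signal in Cyp1b1-null oil, 0.433% and 0.449% in the controls (0.351% in WT oil replicate 1), and 0.316% and 0.385% in the slide mates. Cyp1b1-null oil lay above both, but WT DMBA reached 0.458% to 0.529%. By log ratio, 4 of 15 were higher than in WT oil and 0 lower, with a median of 0.39 that turned to -0.77 with WT oil replicate 1 included. Of these 4 genes, 2 had saturated Cy5 spots on both Cyp1b1-null oil arrays. The 13 genes with no saturated spot on the 4 arrays compared gave 2 higher and 0 lower, with a median of 0.35. With slide as a random block 1 of the 15 was higher. The backgrounds were 17.3% and 12.4%. Without Cyp1b1-null oil replicate 1 only 1 was higher, and without replicate 2, 5 were.

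Ms4a3, a marker of granulocyte and monocyte progenitors, gave 0.05 and -0.37 in WT oil, 1.08 and 1.05 in Cyp1b1-null oil, and -0.36 and 0.01 in the slide mates. It differed by 1.22 (adjusted p = 0.00694, or 0.0783 with slide as a random block) and 1.24 (adjusted p = 0.0167). Itgb2l, an integrin chain of maturing neutrophils, differed by 0.90 and 0.80, both called. Ctsg (cathepsin G), Mpo (myeloperoxidase) and Chil3 (a chitinase-like protein) were higher than in WT oil by 1.01, 0.87 and 1.66, but their Cy5 spots were saturated on both Cyp1b1-null oil arrays, and none was called against the slide mates. Ctsg and Mpo had no saturated spot on any WT oil array, while Chil3 was saturated in Cy3 on 2 of the 3. Olfm4, a protein of a neutrophil subset, was lower than in WT oil (-0.93, adjusted p = 0.00769).

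The 29 genes of secondary and tertiary granules and maturation took 1.82% and 1.39% of the Cy3 signal in Cyp1b1-null oil, 1.38% and 1.6% in the controls, and 1.01% and 0.976% in the slide mates. The groups overlapped with WT oil. Of the 29, 4 were higher and 2 lower by log ratio (4 and 1 with slide as a random block). Over all genes, 17.3% were higher and 12.4% lower. In this list 9 genes had saturated Cy5 spots on both Cyp1b1-null oil arrays. Among the 20 genes with no saturated spot on the 4 arrays compared, 1 was higher and 2 lower, with a median of -0.02 in place of 0.16.

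Of 20 resident macrophage genes 7 were higher and 1 lower than in WT oil, and 1 was higher against the slide mates too. Among all genes, 17.3% were higher and 12.4% lower than in WT oil, and 1.87% were higher against both. In the fit with slide as a random block, 3 were higher and 0 lower. C1qb, a chain of complement C1q, gave 0.15 and -0.05 in WT oil, 1.38 and 1.51 in Cyp1b1-null oil, and 1.81 and 1.47 in the slide mates. Fcgr1, an Fc receptor for IgG, was higher by 1.22 than in WT oil (adjusted p = 0.000943) and by 0.18 than in the slide mates (adjusted p = 0.625). Adgre1, the F4/80 antigen, showed 0.68 and -0.10. None of these 3 differed by the test from the slide mates.

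Erythroid genes took 1.2% and 1.3% of the Cy3 signal in Cyp1b1-null oil, 1.58% and 1.77% in the controls and 1.48% and 1.51% in the slide mates, so that both Cyp1b1-null oil arrays were lowest. Of 32 genes, 12 were lower and 3 higher than in WT oil (median -0.38), with backgrounds of 12.4% and 17.3%. Lower also against the slide mates were 2 of the 32, where 1.99% of all genes were. Taking slide as a random block, 2 were lower and 2 higher. Of 23 genes with no saturated spot, 12 were lower and 1 higher, with a median of -0.56. Without Cyp1b1-null oil replicate 1 the count lower than in WT oil was 2, and without replicate 2 it was 3. Trim10, a ring finger protein of terminal erythroid differentiation, gave 0.03 and 0.64 in WT oil, -1.11 and -1.13 in Cyp1b1-null oil, and -0.37 and -0.52 in the slide mates (-1.45, adjusted p = 0.00122, and -0.68, adjusted p = 0.0405). Klf1, the master transcription factor of red cells, gave -0.28 and 0.05, then -1.12 and -0.88, then -0.41 and -0.55 (-0.88, adjusted p = 0.00319, and -0.52, adjusted p = 0.0681). The globins Hbb-bt and Hba-a2 had saturated Cy3 spots on all 3 WT oil arrays and saturated Cy5 spots on both Cyp1b1-null oil arrays, and no difference is given for them.

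Many cell cycle genes were lower than in WT oil. Of 50 genes of DNA replication and S phase, 20 were lower and 4 higher (median -0.30), and of 49 genes of G2 and mitosis, 21 were lower and 3 higher (median -0.41). The background was 12.4% lower and 17.3% higher. Lower also against the slide mates were 5 and 6, where 1.99% of all genes were. With slide as a random block 8 and 11 were lower, and the median of the second list was -0.21. With WT oil replicate 1 the medians were -1.02 and -1.40. Against the slide mates the 2 medians were only -0.09 and -0.08, and between genotypes after DMBA they were -0.06 and -0.003. Without Cyp1b1-null oil replicate 1 the counts lower than in WT oil were 9 and 14, and without replicate 2 they were 15 and 11. Cdc45, a subunit of the replicative helicase, gave 0.09 and -0.03 in WT oil, -1.08 and -1.08 in Cyp1b1-null oil, and -0.19 and -0.24 in the slide mates (-1.11, adjusted p = 0.000235, and -0.86, adjusted p = 0.00108). Both Cyp1b1-null oil arrays were far below the others.

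Ncapd2, a subunit of condensin, gave 0.05 and 0.29, then -1.03 and -0.95, then -0.27 and -0.24. It differed by -1.16 from WT oil (adjusted p = 0.000146), by -0.74 from the slide mates (adjusted p = 0.000807) and by -0.68 between genotypes after DMBA (adjusted p = 0.00858). Rrm1, a subunit of ribonucleotide reductase, differed by -0.98 and -0.53, and Ccna2, cyclin A, by -1.10 and -0.49, each called. Erythroid and B cell precursors are among the cycling cells of marrow. The summed markers of both took a smaller share of the Cy3 signal on these arrays, and their part in the cell cycle result was not tested.

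Cytosolic ribosomal protein genes showed the highest median of all lists against WT oil (0.62), with 44 of 79 called higher and 9 lower, but a median of -0.34 in Cy3 alone, 0.34 with the mean of all probes of a gene and 0.07 with WT oil replicate 1. Over all genes, 17.3% were called higher and 12.4% lower. Of the 79, 57 had saturated Cy5 spots on both Cyp1b1-null oil arrays, and 41 of these were among the 44. Of the 17 genes with no saturated spot on the 4 arrays, 3 were higher and 4 lower, with a median of -0.28. Against the slide mates, which were saturated alike, 2 were higher and 6 lower (median -0.10). In Cy3 alone these genes took 5.9% and 6.8% of the signal in Cyp1b1-null oil, 7.44% and 7.04% in the controls and 5.65% and 6.64% in the slide mates. Rpl32 shows the pattern: -0.10 and -0.44 in WT oil, 1.10 and 1.00 in Cyp1b1-null oil, and 1.06 and 1.30 in the slide mates. Rpsa, a protein of the small subunit, was lower against both (-1.26, adjusted p = 0.000204, and -0.56, adjusted p = 0.0311).

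**Figure D4:**
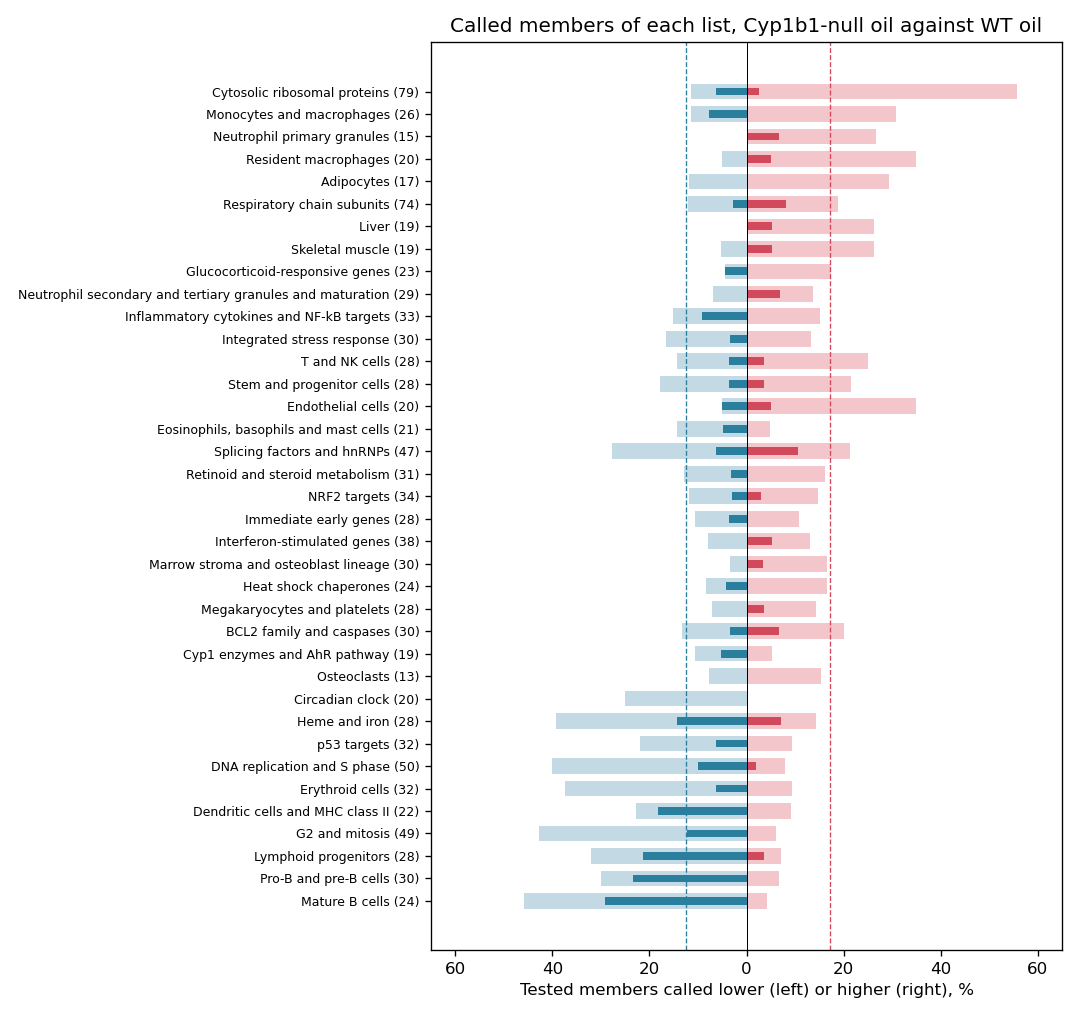
Bars give the percent of each list's tested members (number in parentheses) called lower (left) or higher (right) in Cyp1b1-null oil than in WT oil; dark inner bars are members also called against the slide mates, dashed lines mark the background of all genes (12.4% lower, 17.3% higher), and lists are sorted by median difference. B-lineage lists stand at the bottom with the longest dark bars to the left, and the long right bar of ribosomal proteins has almost no dark part.

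AhR-linked genes differed little after oil. Of 19 genes of the Cyp1 enzymes and AhR pathway, 1 was higher and 2 lower than in WT oil (median -0.16). With slide as a random block the counts were 0 and 1. Over all genes, 17.3% were higher and 12.4% lower, or 3.77% and 3.83% with that block. Cyp1a1, the most inducible AhR target, was not well above background on any array of either oil group, at log ratios of -0.11 and 0.48 in WT oil and 0.02 and -0.01 in Cyp1b1-null oil. Cyp1a2, mainly a liver enzyme, was well above background on 1 of the 2 WT oil arrays and on 0 of the 2 Cyp1b1-null oil arrays. Ahr itself differed by -0.33 (adjusted p = 0.237).

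The AhR repressor Ahrr gave 0.16 and 0.78 in WT oil and -0.19 and -0.09 in Cyp1b1-null oil (-0.61, adjusted p = 0.168), but 2.42 and 3.07 in the BP-treated slide mates. The slide mates, which differ in genotype and in treatment, lay above both oil groups. After DMBA, Cyp1a1 gave 0.23 and 0.04 in Cyp1b1-null and 1.76 to 1.93 in WT mice (-1.73, SE 0.29, adjusted p = 0.0049). Ahrr gave 0.35 and 0.07 against 1.41 to 1.84 (-1.43, adjusted p = 0.0218). Among the members called in oil, Xdh (xanthine dehydrogenase) was lower (-1.05, and -1.18 against the slide mates, both called), and Slc7a5 (an amino acid transporter) was higher (0.91, and -0.39 against the slide mates, the second not called).

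The core of the AhR response element, GCGTG, was searched on both strands of the same promoter table and stood in 32.4% of promoters and in 31 of these 71 described genes. It is shown for Cyp1b1 and for Cyp1a1 and Ahrr, which were lower in Cyp1b1-null than in WT mice after DMBA, with matches in capitals. Cyp1a1 is on the plus strand (chr9:57697493-57697612), Ahrr on the minus strand (chr13:74292332-74292451) with 3 matches, and Cyp1b1 on the minus strand (chr17:79715062-79715181) with its match on the opposite strand, read as CACGC.
Cyp1a1: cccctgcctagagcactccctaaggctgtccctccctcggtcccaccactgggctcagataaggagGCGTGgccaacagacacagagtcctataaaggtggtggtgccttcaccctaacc
Ahrr: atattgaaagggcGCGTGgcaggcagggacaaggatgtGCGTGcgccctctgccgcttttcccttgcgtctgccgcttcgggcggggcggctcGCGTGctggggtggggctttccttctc
Cyp1b1: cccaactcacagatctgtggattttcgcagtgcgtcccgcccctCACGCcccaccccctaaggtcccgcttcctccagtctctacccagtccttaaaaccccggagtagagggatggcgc

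The largest rises against WT oil were shared by the slide. Polr2a, the large subunit of RNA polymerase II, gave -0.46 and -1.44 in WT oil, 3.09 and 3.08 in Cyp1b1-null oil, and 3.91 and 3.22 in the slide mates. It differed by 4.04 from WT oil (SE 0.87, adjusted p = 0.00348) and by -0.48 from the slide mates (adjusted p = 0.637). Kcnh4 (a potassium channel), Dyrk1b (a kinase) and Ugt2b34 (a glucuronosyltransferase) rose by 3.85, 3.80 and 3.80 against WT oil and differed from the slide mates by -0.43, -0.37 and -0.38, none called. The liver enzymes G6pc and Tat had differences of 2.58 and 2.19 from WT oil, and of 0.55 and -0.30 from the slide mates, neither called. None of these genes separated Cyp1b1-null oil from the slide mates by the test.

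Among the largest falls, Chchd10, a mitochondrial protein, gave 0.50 and 0.62 in WT oil, -1.55 and -1.43 in Cyp1b1-null oil, and -0.49 and -0.26 in the slide mates. It differed by -2.05 (SE 0.24, adjusted p = 0.000177) and -1.12 (SE 0.24, adjusted p = 0.00979). Rag1, Fcrla, Cd79b and Klhl6, described above, were also among the 12 largest falls and were called against the slide mates too. Mylip (a ubiquitin ligase), Rapgefl1, Sertad2, Epb41 (a protein of the red cell membrane skeleton), Smc2 (a condensin subunit) and Zfp871 fell by 1.61 to 1.80 on the log2 scale, and none was called against the slide mates. Sertad2 gave 0.02 and 0.86 in WT oil, -1.34 and -1.21 in Cyp1b1-null oil, and -1.18 and -1.18 in the slide mates, which lay close to Cyp1b1-null oil. Rapgefl1 gave 0.50 and 0.53, then -1.16 and -1.29, then -0.08 and -0.08, so that its slide mates lay nearer to WT oil (-1.15 from them, adjusted p = 0.0543).

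Some genes differed in the same direction after oil and after DMBA. After oil and after DMBA, 133 genes were higher in both genotype comparisons (0.546%) and 78 lower (0.32%), which is 64.3% and 44.1% of the DMBA calls and 3.16% and 2.58% of the oil calls. These comparisons use different arrays and controls, and in neither can slide and genotype be told apart. Of them, 79 higher and 51 lower genes were also called against the slide mates. In the DMBA comparison 0 genes were called by limma once slide was a random block (1049 at an unadjusted p under 0.05). The size of the genotype difference itself changed between oil and DMBA for 745 genes (3.06%) by the interaction term in limma, with 417 positive (1.71%) and 328 negative (1.35%) for oil minus DMBA.

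D530039A21Rik, an unnamed transcript known by its clone name, had the largest fall. It gave -0.19 and 0.28 in WT oil, -3.89 and -4.56 in Cyp1b1-null oil, and -0.12 and -0.32 in the slide mates. It was 19.3-fold lower than in WT oil (-4.27, SE 0.28, adjusted p = 7.39e-07) and differed by -4.01 from the slide mates (adjusted p = 1.61e-06). After DMBA it was not well above background on either Cyp1b1-null array, where it gave -2.68 and -1.63, and the WT arrays gave -0.24 to 0.18. The double-null arrays gave -0.65 to -1.08, between the Cyp1b1-null arrays and the Cyp1a1-null oil arrays (-0.16 to -0.01).

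Wdfy1, an adaptor of Toll-like receptor signalling, gave 0.23 and -0.27 in WT oil, 2.18 and 2.12 in Cyp1b1-null oil, and 0.07 and 0.06 in the slide mates. It differed by 2.17 (SE 0.19, adjusted p = 2.2e-05) and 2.08 (adjusted p = 1.56e-05). After DMBA it gave 1.15 and 0.63 against 0.04 to 0.10 (0.81, adjusted p = 0.0236). The double-null arrays, which also lack Cyp1b1 by their label, gave 1.42 to 2.16 and the Cyp1a1-null oil arrays -0.25 to 0.12. All arrays labelled as lacking Cyp1b1 were thus above all others given here.

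Pira2, an activating receptor of the paired immunoglobulin-like family on myeloid and B cells, gave -0.13 and -0.37 in WT oil, 2.58 and 2.21 in Cyp1b1-null oil, and -0.28 and -0.49 in the slide mates. It differed by 2.65 (SE 0.25, adjusted p = 4.66e-05) and 2.78 (adjusted p = 1.47e-05), and by 1.30 after DMBA (adjusted p = 0.00651). The double-null arrays gave 0.78 to 1.06. Pira2 belongs to a family of near-identical genes, so the probe may read several members.

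Further genes were called in all 3 contrasts with WT oil, the slide mates and after DMBA. Arrb2, beta-arrestin 2, differed by 1.88, 0.97 and 1.45, and Cpne2, a copine, by 1.82, 1.64 and 1.37. Fli1, an Ets factor of megakaryocytes and B cells, differed by 1.19, 0.80 and 1.36, and Fundc1, a receptor for mitophagy, by 1.19, 1.22 and 0.64. Smarca4, the ATPase of the BAF complex, named after its values were seen, differed by -1.25, -1.24 and -0.87, and Ccng1, a p53 target, by -1.06, -0.69 and -1.11. Rnf149, a ubiquitin ligase, differed by 1.91 and 1.77 after oil and DMBA but was not called against the slide mates (0.90, adjusted p = 0.0542).

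**Figure D5:**
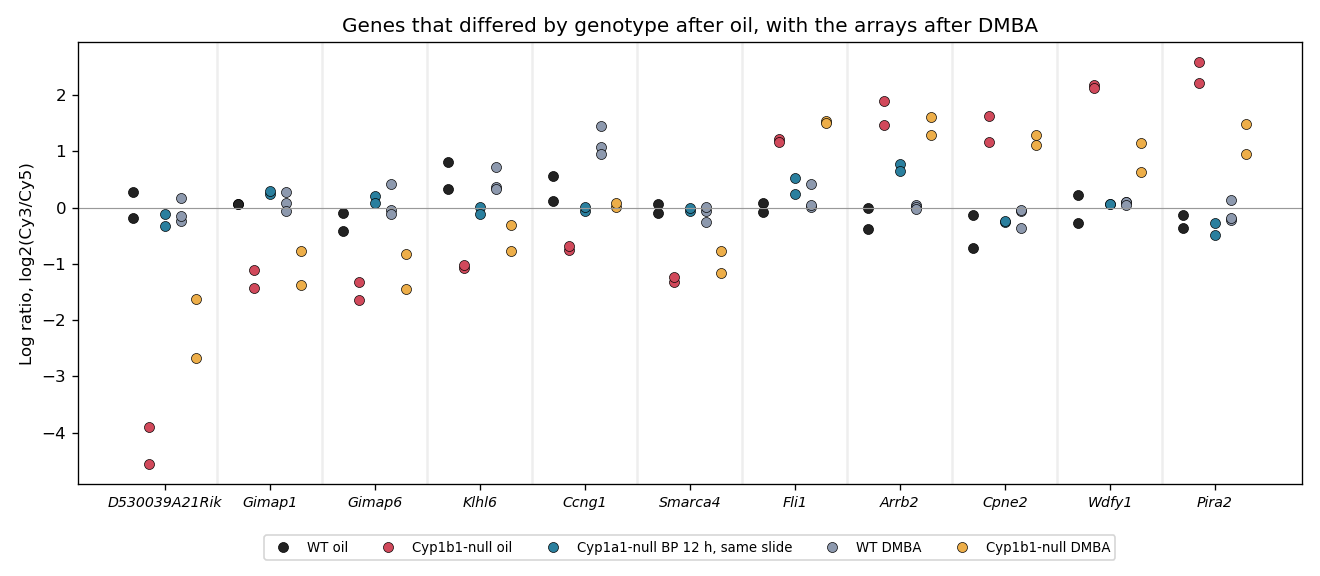
Log ratios, log2(Cy3/Cy5), of 11 genes with 1 point per array for WT oil replicates 2 and 3, Cyp1b1-null oil, the slide mates, WT DMBA and Cyp1b1-null DMBA. In each gene both Cyp1b1-null oil points and both Cyp1b1-null DMBA points lie apart from their WT groups on the same side, from D530039A21Rik (-3.89 and -4.56 after oil) to Pira2 (2.58 and 2.21).

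A part of the stress and signalling genes was called against both references. Of 33 inflammatory and NF-kB genes, 5 were higher and 5 lower than in WT oil, with backgrounds of 17.3% and 12.4%. Lower also against the slide mates were 3, where 1.99% of all genes were. Against the slide mates alone, 11 of the 33 were lower and 0 higher, where 4.03% and 3.34% of all genes were. Once slide was a random block, 1 was higher and 3 were lower. Relb, an NF-kB subunit, gave -0.18 and -0.02 in WT oil, -1.15 and -1.24 in Cyp1b1-null oil, and 0.00 and 0.04 in the slide mates (-1.09, adjusted p = 0.00106, and -1.21, adjusted p = 0.000937). Bcl3, a nuclear IkB protein, differed by -0.94 and -0.72, and Atf4, the central factor of the integrated stress response, by -0.87 and -0.89, each called. The 30 genes of that response did not follow Atf4 as a set, with 4 higher and 5 lower than in WT oil (median 0.12). Between genotypes after DMBA, 3 of them were higher and 0 lower.

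The neighbours of Cyp1b1 on chromosome 17 were described separately. Of 49 genes tested within 5 Mb (RefSeq annotation, GRCm38.p6), 6 were higher and 9 lower than in WT oil, against a background of 29.7% in either direction, and 1 higher and 2 lower were also called against the slide mates. Taking slide as a random block, 1 was higher and 4 were lower. Gpatch11, 0.871 Mb away, gave 0.03 and -0.06 in WT oil, 0.91 and 1.01 in Cyp1b1-null oil, and 0.03 and 0.20 in the slide mates (0.98, adjusted p = 0.00106, and 0.84, adjusted p = 0.00108). Gm6548, 0.856 Mb away, was lower against both and after DMBA (-1.33, -0.81 and -0.99). The nearest called gene, Atl2 at 0.141 Mb, differed by -0.69 from WT oil (adjusted p = 0.00751) and was not called against the slide mates (adjusted p = 0.174), and neither were Srsf7 (0.65 from WT oil), Strn (0.61) and Lrpprc (-0.83). Over all 905 genes tested on chromosome 17, 31.8% were called, and 1.88% were called in the same direction after oil and DMBA, where other chromosomes ranged from 0.475% to 1.84%.

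Cyp1b1-null oil was also compared with Cyp1a1-null oil, which lay on another slide scanned with a later version of the extraction software. In that contrast 5315 genes (21.8%) were called, 3343 higher (13.7%) and 1972 lower (8.09%). Called there were D530039A21Rik (-4.15, adjusted p = 2.73e-07), Wdfy1 (2.20, adjusted p = 4.48e-06), Pira2 (2.42, adjusted p = 4.44e-05) and Gpatch11 (1.38, adjusted p = 0.000197). Rag1 (-1.28, adjusted p = 0.0312), Fcrla (-1.21, adjusted p = 0.017) and Vpreb3 (-0.81, adjusted p = 0.0268) were called too, whereas Cd79b was not (-1.03, adjusted p = 0.0696). The calls of Rag1, Fcrla and Vpreb3 were lost with slide as a random block (adjusted p = 0.147, 0.098 and 0.197), which left 96 genes called, and those of D530039A21Rik, Wdfy1, Pira2 and Gpatch11 were kept. With the software version as a term 9 genes were called.

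The authors' deposited table gives its own log2 difference of Cyp1b1-null oil from WT oil. Its header names all 3 WT oil arrays, whereas the differences given here leave out WT oil replicate 1. In the authors' deposited table Rag1 stood at -1.86, Fcrla at -2.13, Cd79b at -1.82, Ebf1 at -1.37, Igha at 2.62, Pira2 at 2.62, Wdfy1 at 2.58 and D530039A21Rik at -7.39. Over genes, the authors' deposited table correlated at 0.832 with the differences given here and at 0.661 with those that include WT oil replicate 1; genes are not independent replicates. The authors' deposited table gives 1.91 for Cyp1b1, also in the direction of higher signal.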

How the data were processed

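Total RNA of marrow was hybridised to 24 Agilent 2-colour mouse arrays on 10 slides. The deposited files hold intensity values (mean spot and median background signal per channel), extracted, per the file headers, with version 9.1.3.1 or 10.7.3.1 of Agilent's Feature Extraction software, and not normalized between arrays. The authors' deposited table of the series holds log2 differences between groups, with scaling and centring not stated. The submitters' processing notes name limma, with no version given.

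Intensities were analysed in R 4.3.3 with limma 3.58.1, statmod 1.5.0 and version 1.17.8 of data.table. Background was corrected with normexp (offset 50), and log2(Cy3/Cy5) was normalized within arrays by loess. The brightest probe of a gene was kept. Of 41174 probes, RefSeq (GRCm38.p6) gave a name to 24844 through the accession, to 6045 through the symbol and to 1810 through a synonym, and 8475 kept the name the array design gives. A gene was tested if Cy3 was well above background on at least 3 arrays. Group means were fitted over 23 arrays, without WT oil replicate 1, and 262 genes had no value on 1 or more of these. Limma's moderated test was adjusted over all genes by Benjamini-Hochberg, with calls at 0.05, and was tested on simulated data. The simulated arrays held no slide effect, so they cannot show whether calls against WT oil are free of it. The number of arrays limits the precision. A Cy3 share is the list's summed background-corrected Cy3 over that of all genes tested, with no test.

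Genes were named by a rule: Cyp1 and AhR genes, the largest rises and falls without overlap between groups, the members of each list with the smallest adjusted p and those going the other way, called neighbours of Cyp1b1, and genes called after both treatments or in the other contrasts. The rule gave 233 genes, of which the text gives a part. The genes, lists and comparisons were chosen with earlier results of these data known. The contrast with the slide mates, calls in both contrasts and counts without saturated spots were added after the data were seen. Same-numbered arrays did not deviate together, and no pairing was used. Alternatives covered background, signals, filter, probes, scaling, slide, software version, replicate block, prior, samples in the fit and leaving out arrays.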

Additional observations from a re-analysis of the deposited data

Results flagged for a closer look

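For 745 genes (3.06%) the difference between Cyp1b1-null and WT marrow was not the same after oil and after DMBA, by the interaction term in limma; 417 were positive (1.71%) and 328 negative (1.35%). All 22 genes of this section were singled out by that test. By the fit with a random slide term 41 genes were called, and the oil difference and its slide cannot be told apart. The interaction is given below as the oil difference minus the DMBA difference.

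For D530039A21Rik, Pira2 and Wdfy1, called in the same direction under both treatments, the difference was larger after oil. D530039A21Rik had an interaction of -2.19 (adjusted p = 0.0103), from -4.27 after oil and -2.08 after DMBA, where the second is read from signals not well above background. Pira2 had 1.34 (adjusted p = 0.0412), from 2.65 and 1.30. Wdfy1 had 1.36 (adjusted p = 0.0146), from 2.17 and 0.81. Log ratios were narrower on the Cyp1b1-null DMBA arrays (SD 0.226 and 0.185) than on the Cyp1b1-null oil arrays (0.464 and 0.465). Their Cy3 floor was higher, with 5th percentiles of 7.71 and 8.01 (log2) against 6.51 and 5.86. The part of this in the interactions of this section was not tested.

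For 4 ribosomal protein genes the interaction was read from saturated spots, so that its size is uncertain: 2.07 for Rpl41 (6.29e-05), 1.90 for Rps3a1 (3.35e-05), 2.19 for Rps14 (0.000148) and 1.81 for Rpl32 (0.000338). Their Cy5 spots were saturated on both Cyp1b1-null oil arrays, and those of Rpl41 and Rps14 also on all 5 DMBA arrays compared; the part of this in the values was not tested. Rpsa, another such gene, had -0.83 (adjusted p = 0.0414). Chil3, also saturated in Cy5 on both, and in Cy3 on 2 of 2 Cyp1b1-null DMBA, 2 of 3 WT DMBA and 2 of 3 WT oil arrays, had 1.57 (adjusted p = 0.025), of equally uncertain size.

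Lower after oil than after DMBA, relative to WT, were Sertad2 with -1.77 (adjusted p = 0.0348), Chchd10 with -1.39 (adjusted p = 0.0367), Adi1 (an enzyme of methionine salvage) with -1.38 (adjusted p = 0.0016), Elp4 (a subunit of Elongator) with -1.21 (adjusted p = 0.00413), Zap70 with -1.13 (adjusted p = 0.0134) and Clybl (a mitochondrial enzyme) with -1.11 (adjusted p = 0.00504). Klf1 followed with -1.03 (adjusted p = 0.0397), Atf4 with -0.94 (adjusted p = 0.0144), Lrpprc with -0.91 (adjusted p = 0.0196), Hdgf (a growth factor) with -0.91 (adjusted p = 0.00463) and Ccna2 with -0.76 (adjusted p = 0.0488). Higher were Cr2 with 1.53 (adjusted p = 0.046) and C1qb with 1.36 (adjusted p = 0.00844). For Adi1, Elp4, Clybl, Sertad2, Zap70, Cr2 and C1qb the slide mates did not differ from Cyp1b1-null oil by the test.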

How the results depend on the processing

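Of 83 named genes called in Cyp1b1-null oil against WT oil, 64 kept direction and call with slide as a random block, 64 without WT oil replicate 3, 69 without Cyp1b1-null oil replicate 1 and 76 without replicate 2. With WT oil replicate 1 included, 55 did so and 10 turned direction, and with Cy3 alone 22 did so and 7 turned. With slide as a random block and WT oil replicate 1 together, 0 stayed called. The causes were not tested.

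The count of 7232 against WT oil was 537 with Cy3 alone, 1853 with slide as a random block, 3629 with only the groups compared, 3780 with WT oil replicate 1, and 0 with that array and slide as a random block (2520 at an unadjusted p under 0.05); leaving out 1 array gave 2584 to 8517. The DMBA count of 384 was 785 with no background subtraction, 234 with the mean of probes, 16717 with Cy3 alone, 834 with Feature Extraction version as a term, 818 with only the groups compared, 25 with WT oil replicate 1, and 0 with slide as a random block without or with that array (1049 and 168 unadjusted), with 37 to 396 on leaving out 1 array. The interaction count of 745 was 264 with no background subtraction, 0 with Cy3 alone (10336 unadjusted), 41 with slide as a random block, 3249 with version, 2865 with only the groups compared, 2 with WT oil replicate 1 and 0 with both (258 unadjusted), and 29 to 3234 on leaving out 1 array. The count of 5315 against Cyp1a1-null oil was 317 with Cy3 alone, 96 and 84 with slide as a random block and as a fixed term, 9 with version, 7994 with only the groups compared, 1217 with WT oil replicate 1 and 4 with slide as a random block too, and 880 to 3880 on leaving out 1 array. The count of 1795 against the slide mates was 1075 with no background subtraction, 884 with processed signals, 9 with Cy3 alone, 2738 with slide as a fixed term, 899 with only the groups compared and 114 with WT oil replicate 1, and 488 to 2601 on leaving out 1 array. Where 1 array was left in a group, it was assumed to vary like the others. Slide as a fixed term could not be estimated against WT oil or after DMBA.

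Directions that turned with Cy3 alone were those of Cyp1a1 (0.32), Cyp1a2 (0.29), Slc7a5 (-0.13), Rag2 (0.06), Mpo (-0.04), Rpl41 (-0.22), H2-Aa (0.12), Srsf7 (-0.13) and Strn (-0.14), with medians of -0.04 for secondary granules and -0.34 for ribosomal proteins. With WT oil replicate 1, without and with slide as a random block, they were Cyp1a2 (0.82, 0.61), Ahr (0.59, 0.50), Slc7a5 (-0.05, -0.08), Ms4a3 (-0.42, -0.09), Ctsg (-0.93, -0.35), Mpo (-1.27, -0.57), Chil3 (-0.79, -0.12), Itgb2l (-0.55, -0.12), Srsf7 (-0.55, -0.60), Strn (-0.08, -0.09), Clybl (0.11, 0.15) and the medians of primary (-0.77, -0.43) and secondary granules (-0.93, -0.51). Fli1 turned without the block (-0.23). Leaving out 1 array gave -0.47 to 0.12 for Cyp1a1 and -0.07 to 0.07 for Cyp1a2, both turning without WT oil replicate 3; without Cyp1b1-null oil replicate 1 Cyp1a2 (0.02) and the secondary granule median (-0.05) turned, and with the mean of probes Hdgf (0.03).

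A replicate block gave counts of 5924, 535, 804, 4575 and 1897 in the order above, moved none by over 1.5 times, and turned Cyp1a1 (0.03). Deviations of same-numbered arrays correlated at -0.0615 to 0.0524, so the pairing rests on a shared number only.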
